A study of Gallus gallus with 20 samples.

Results

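Of 25935 EZH2 regions mapped by CUT&RUN in the chicken lens at embryonic day 4.5, 5847 (22.5%) shared at least 1 bp with a SUZ12 region and with an H3K4me3 region and no base with an H3K27me3 region. They were therefore chosen by measured peaks of EZH2, SUZ12, H3K4me3 and H3K27me3. They made up 51.8% of the 11286 EZH2 regions with SUZ12, which are called core regions here because EZH2 and SUZ12 are core subunits of the same complex. The 5847 regions are called H3K4me3 core regions. Of the other core regions, 2214 met H3K27me3 and not H3K4me3 (H3K27me3 core regions), 1473 met both marks (both-mark core regions) and 1752 met neither (unmarked core regions). A further 900 EZH2 regions met H3K4me3 without SUZ12 or H3K27me3.

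Lenses of Gallus gallus embryos of embryonic day 4.5 had been collected in 3 pools of about 44 lenses, and 100000 nuclei went into each CUT&RUN reaction, an assay in which antibody-tethered nuclease releases the DNA beside a chromatin protein. The 20 libraries comprised 3 for each of 6 antibodies (the 2 histone marks and the 4 PRC2 subunits AEBP2, JARID2, SUZ12 and EZH2) and 2 for control IgG; the labels name no treatment and no genotype. The data were 6 peak lists, 1 for each antibody other than IgG. Each list stands for 3 libraries, so no value per library could be given and no difference could be set against the spread between libraries.

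Polycomb repressive complex 2 (PRC2) methylates lysine 27 of histone H3. EZH2 is its catalytic subunit and SUZ12 its scaffold, and JARID2 and AEBP2 are accessory subunits that join one form of the complex. H3K27me3, its product, marks silenced developmental genes, whereas H3K4me3 marks the promoters of active and poised genes, and methylation of lysine 4 is known to hinder PRC2 on the same histone tail. PRC2 signal at promoters with H3K4me3 and without H3K27me3 therefore belongs to a chromatin state that differs from the one for which the complex is best known. Lists from pooled nuclei do not show whether EZH2 and H3K4me3 lay on the same chromatin fibre or in the same cells, and a region used in few cells cannot be told apart from weak signal in many.

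The labelled tissue was checked on genes fixed as markers. H3K4me3 lay at an end of 22 of 30 lens fiber genes, 25 of 30 lens transcription factor genes and 23 of 29 lens epithelium genes. It lay at 0 of 10 endothelial, 1 of 7 blood, 2 of 10 retinal and neural, 2 of 7 pigment epithelium, 1 of 4 muscle and 5 of 9 periocular mesenchyme genes. Of the genes of these 6 other cell types, only PDGFRA, which is also in the lens epithelium list, had an H3K4me3 core region at an end.

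By the marks that chose them, the H3K4me3 core regions were narrower and of lower EZH2 fold than core regions with H3K27me3. Fold here is the signal of a peak over the peak caller's own background, and it was compared only within 1 list. Their median width was 535 bp (quartiles 362 and 764 bp), against 904 bp in H3K27me3 core regions, 1347 bp in both-mark and 296 bp in unmarked core regions. The median was 377 bp over all EZH2 regions and 362 bp at EZH2 regions with H3K4me3 and no SUZ12, so both were narrower. Their median EZH2 fold was 3.10 (quartiles 2.24 and 4.48), and the highest was 24.2. In H3K27me3 core regions the median was 7.99 and the highest 330. When all EZH2 regions were ranked by fold in 10 equal groups, H3K4me3 core regions formed 50.0% of the lowest group and 4.90% of the highest. H3K27me3 core regions formed 1.54% and 37.3% of the same groups. Low fold did not mean that few passed a stricter limit: a −log10 q-value of at least 5 was reached by 90.3% of H3K4me3 core regions (95% interval 89.5 to 91.1). The share was 94.4% in H3K27me3 core regions, 71.9% in unmarked core regions and 76.2% over all EZH2 regions. SUZ12 fold differed little between the classes, with medians of 4.19 in H3K4me3 core regions and 3.99 in H3K27me3 core regions.

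Most H3K4me3 core regions lay inside an H3K4me3 region rather than across its border. The whole EZH2 region was inside in 63.8%, and the reverse, an H3K4me3 region inside the EZH2 region, held in 5.03%. The H3K4me3 regions involved had a median width of 1237 bp, of which the EZH2 region covered a median of 42.8%. In all, 5397 H3K4me3 regions were the main partner of at least 1 H3K4me3 core region: 4982 had 1, 382 had 2, 31 had 3 and 2 had 4.

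The EZH2 summit, the base of highest signal, was spread almost evenly along the H3K4me3 region, while the H3K4me3 summit was central. Places were taken in order of coordinate and not by gene direction, so a lean along the gene cannot be seen in them. With each H3K4me3 region divided into 10 equal parts, each of the 8 inner parts held between 9.90% and 11.7% of EZH2 summits, near the 10% of even placement. The first and last part held 5.85% and 4.43%. The 4 outer parts, 2 on each side, held 31.8% of EZH2 summits (95% interval 30.6 to 33.0), 26.6% of SUZ12 summits, 28.9% of AEBP2 summits and 24.3% of JARID2 summits, all below the 40% of even placement, and 3.81% of EZH2 summits lay outside the H3K4me3 region. Of H3K4me3 summits, 9.26% lay in the 4 outer parts (8.50 to 10.1) and 37.4% in the 2 central parts. The H3K4me3 summit belongs to the region in which it is placed, so it is not a like contrast for summits of other lists. In H3K4me3 regions wider than 2500 bp, 38.3% of EZH2 summits (34.5 to 42.3) lay in those outer parts.

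**Figure D1:**
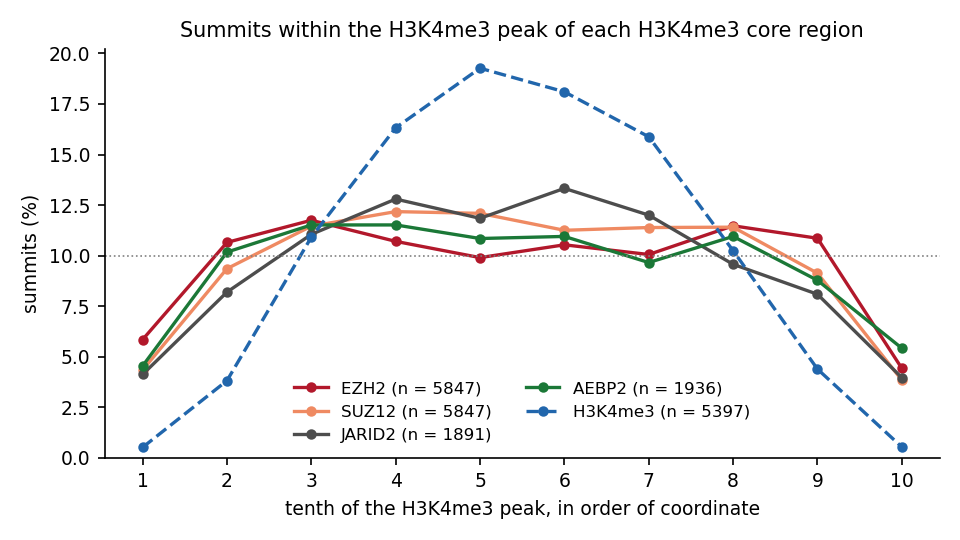
Share of summits (y axis, %) in each of 10 equal parts of the H3K4me3 region (x axis, in order of coordinate) for EZH2, SUZ12, JARID2 and AEBP2 at the H3K4me3 core regions and for H3K4me3 itself. The dotted line marks the 10% of even placement; EZH2 stays between 9.90% and 11.7% in the 8 inner parts, whereas H3K4me3 peaks at 19.3%.

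Summits of the subunits were compared only where their regions overlapped, which by itself keeps them near each other. EZH2 and SUZ12 summits of H3K4me3 core regions were a median of 98 bp apart, against 155 bp in H3K27me3 core regions. Where a JARID2 region overlapped, its summit was 158 bp from that of EZH2, against 184 bp in H3K27me3 core regions, and the AEBP2 summit was 103 bp away, against 170 bp. The EZH2 summit and the H3K4me3 summit were 157 bp apart. Narrower regions leave less room for distance, and the part of width in these medians was not tested.

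Gene ends were the usual place of these regions. An end of a protein-coding gene lay within 1 kb of 82.6% of H3K4me3 core regions (95% interval 81.6 to 83.5), of 47.4% of H3K27me3 core regions (45.3 to 49.5), 78.1% of both-mark and 17.9% of unmarked core regions, and of 39.5% of all EZH2 regions. H3K4me3 itself lies mostly at gene ends, so the choice of members bears on this share. EZH2 regions at H3K4me3 without SUZ12 were at 75.6% (72.6 to 78.3). The gene table gives no strand, so both ends of each gene were used and the start could not be told from the 3′ end. Ends of 2 or more coding genes lay within reach of 30.8% of H3K4me3 core regions, against 9.76% of H3K27me3 core regions. Of the 1020 H3K4me3 core regions with no coding end, 798 lay inside a coding gene, 141 lay at the end of a non-coding gene (124 of them at a long non-coding RNA and 13 at a microRNA), and 81 lay between genes.

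At the gene end, EZH2 summits fell on both sides and H3K4me3 summits on one. This was read at the H3K4me3 core regions with 1 coding gene, where distances can be signed by which way the gene runs from that end. EZH2 summits lay inside the gene in 59.6% of 2907 cases (95% interval 57.8 to 61.4), a median of 47 bp in, with quartiles 100 bp outside and 178 bp inside the gene. SUZ12 was further in, with 70.3% of 2814 summits inside (68.6 to 72.0) and a median of 96 bp. JARID2 had 69.2% of 923 inside (66.1 to 72.2), a median of 127 bp in, and AEBP2 had 61.2% of 998 inside (58.1 to 64.3), a median of 62.5 bp in. H3K4me3 summits lay inside the gene in 91.9% of 2745 cases (95% interval 90.9 to 92.9), a median of 162 bp in. Compared region by region, the EZH2 summit lay further out than the H3K4me3 summit in 76.5% of 2840 cases (74.9 to 78.0), by a median of 113 bp over all of them.

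**Figure D2:**
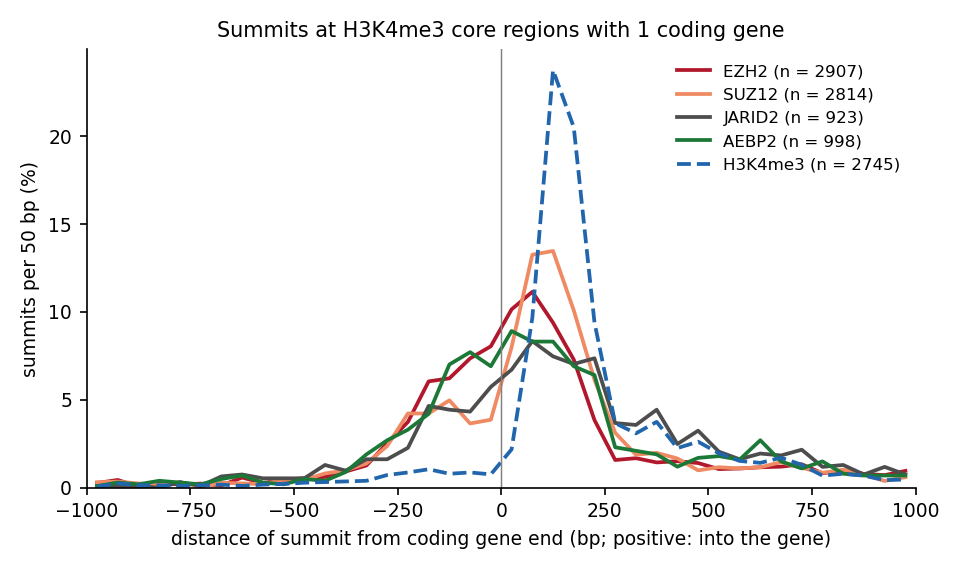
Distance of summits from the coding gene end (x axis, bp, positive into the gene) as shares of summits per 50 bp (y axis, %), at H3K4me3 core regions with 1 coding gene. H3K4me3 forms 1 peak inside the gene, with 91.9% of summits inside, while EZH2 and AEBP2 lie on both sides of the end, with 59.6% and 61.2% inside.

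JARID2 was found at 32.3% of H3K4me3 core regions (1891 regions; 95% interval 31.1 to 33.6). The share was 61.1% in H3K27me3 core regions (59.0 to 63.1), 74.0% in both-mark core regions (71.7 to 76.2), 18.8% in unmarked core regions (17.0 to 20.7), 21.6% at EZH2 regions with H3K4me3 and no SUZ12 (18.9 to 24.4), and 28.6% over all EZH2 regions. AEBP2 was found at 33.1% (1936 regions; 31.9 to 34.3), against 39.9% in H3K27me3 core regions (37.9 to 42.0), 49.7% in both-mark core regions, 29.4% in unmarked core regions, 15.4% at H3K4me3 without SUZ12 and 28.3% over all EZH2 regions. Intervals are exact binomial and cover counting error only, and neighbouring regions are not independent. Over all H3K4me3 regions free of H3K27me3, 30.3% met JARID2 and 28.4% met AEBP2. Those H3K4me3 regions had a median width of 1069 bp, against 535 bp for the H3K4me3 core regions, and 57.9% of them held one. The shares are therefore not a like contrast.

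At H3K4me3 core regions, AEBP2 was as frequent as JARID2, whereas in H3K27me3 core regions JARID2 was the more frequent. AEBP2 without JARID2 occurred at 19.7% of H3K4me3 core regions (18.7 to 20.7) and JARID2 without AEBP2 at 18.9% (17.9 to 20.0). In H3K27me3 core regions the same shares were 10.9% and 32.1%. Both were present at 13.4% of H3K4me3 core regions and at 29.0% of H3K27me3 core regions, and neither at 48.0% and 28.0%. The JARID2, AEBP2 and EZH2 lists have different lengths, 48093, 168110 and 25935 regions, and the balance depended on this. Each list, that of H3K27me3 included, was also cut to its 11079 strongest regions and the rule applied anew. JARID2 was then at 13.8% of the 1000 regions that met the rule and AEBP2 at 5.60%.

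A wider region meets more regions of any list, and the JARID2 gap between the classes was smaller within a width class than over all widths. JARID2 was at 15.4% of H3K4me3 core regions under 300 bp, 25.4% of those of 300 to 600 bp, 40.9% of those of 600 to 1000 bp and 58.6% of those of 1000 to 2000 bp. H3K27me3 core regions of the same widths had 23.7%, 32.8%, 49.7% and 76.3%. The 95% intervals did not meet in any of these 4 widths. For AEBP2 the shares by width were 17.99%, 30.5%, 39.9% and 46.3% at H3K4me3 core regions, against 21.1%, 32.4%, 34.8% and 41.4% at H3K27me3 core regions, with overlapping intervals throughout.

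Within classes of EZH2 fold, JARID2 and AEBP2 did not follow one order. Below a fold of 2.5, JARID2 was at 20.6% of H3K4me3 core regions (18.8 to 22.5) and 29.7% of H3K27me3 core regions (20.5 to 40.2). At an EZH2 fold of 2.5 to 3.5, JARID2 was at 28.7% of H3K4me3 core regions and 28.1% of H3K27me3 core regions. At a fold of 3.5 to 5 it was at 36.5% and 38.0%, and at a fold of 5 to 10 at 51.4% and 50.4%. From a fold of 10 it was at 69.7% (60.2 to 78.2) and 87.7% (85.4 to 89.7), with intervals that did not meet. AEBP2 was the more frequent at H3K4me3 core regions in the 3 middle classes: 32.1% (29.8 to 34.5) against 22.8% (17.5 to 28.8) in H3K27me3 core regions at 2.5 to 3.5, 37.8% (35.2 to 40.6) against 25.7% (21.2 to 30.6) at 3.5 to 5, and 52.0% (48.9 to 55.2) against 36.5% (32.6 to 40.5) at 5 to 10. Below 2.5 it was at 19.5% and 17.6%, and from 10 at 61.5% and 53.8%, with overlapping intervals in both. Pooled over folds of 2.5 to 10, the AEBP2 share of H3K4me3 core regions minus that of H3K27me3 core regions was 8.60 percentage points (95% interval 5.55 to 11.7). For JARID2 it was −5.14 (−8.34 to −1.93). With a −log10 q of at least 5 in every list, these differences were 7.25 and −5.68. When each list was cut to its 11079 strongest regions, they were 0.05 and −8.09, so the AEBP2 comparison did not hold at equal list size. The pooled differences are not matched for fold within that range. The 3 classes held 1545, 1282 and 982 H3K4me3 core regions and 228, 358 and 595 H3K27me3 core regions. The fold classes were not matched for width either. In the 3 middle classes median widths were 513, 590.5 and 695.5 bp at H3K4me3 core regions and 386.5, 494 and 685 bp at H3K27me3 core regions. They were 442 and 419 bp below a fold of 2.5, and 767 and 2434.5 bp from a fold of 10. The part of width in these fold classes was not tested.

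**Figure D3:**
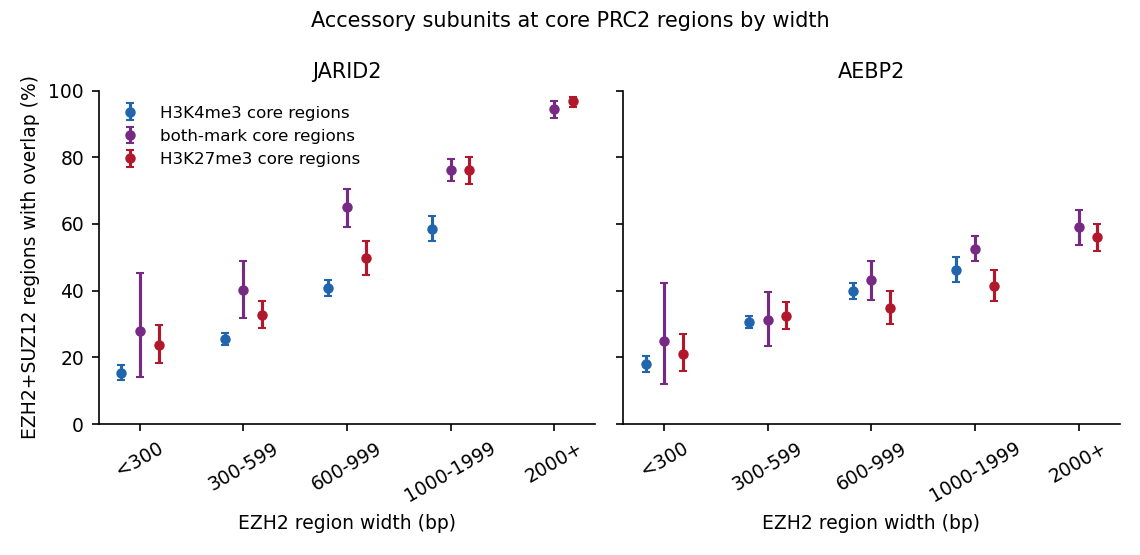
Share of core regions overlapping JARID2 (left) and AEBP2 (right) on the y axis (%), by width of the EZH2 region (x axis, bp), for H3K4me3, both-mark and H3K27me3 core regions. Bars are 95% exact binomial intervals, and classes under 20 regions are not drawn; JARID2 rises from 15.4% under 300 bp to 58.6% at 1000 to 2000 bp in H3K4me3 core regions and is higher in H3K27me3 core regions at each width.

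Within the H3K4me3 core regions, both accessory subunits went with stronger signal of the core subunits. In 5 equal groups from low to high EZH2 fold, the JARID2 share ran 18.5%, 25.0%, 29.7%, 36.1% and 52.4%, and the AEBP2 share 16.9%, 25.7%, 32.8%, 38.1% and 52.0%. By SUZ12 fold JARID2 ran from 26.2% to 42.4% and AEBP2 from 20.9% to 50.4%. Median width rose over the same groups, from 424 to 698 bp by EZH2 fold and from 494 to 577.5 bp by SUZ12 fold. The part of width in these trends was not tested. By H3K4me3 fold the subunits differed: JARID2 ran from 26.7% in the lowest to 40.5% in the highest group, while AEBP2 stayed between 31.9% and 35.0%. AEBP2 was at 41.5% of the H3K4me3 core regions with JARID2 (39.2 to 43.7) and at 29.1% of those without it (27.7 to 30.6). By width the same shares were 19.3% and 17.7% under 300 bp, 36.7% and 28.4% at 300 to 600 bp, 44.9% and 36.4% at 600 to 1000 bp, and 50.1% and 41.0% at 1000 to 2000 bp. The 95% intervals of the shares overlapped in the narrowest and the widest of these classes.

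Most H3K4me3 core regions lay far from H3K27me3. The rule keeps them off H3K27me3 but sets no distance. The median gap to the nearest H3K27me3 region was 38.7 kb (quartiles 13.2 and 89.9 kb), with 11.9% within 5 kb (95% interval 11.1 to 12.8), 4.14% within 1 kb and 22.3% over 100 kb. EZH2 regions at H3K4me3 without SUZ12 lay closer, with a median of 15.3 kb and 27% within 5 kb (24.1 to 30.0). Unmarked core regions had a median of 30.7 kb and 17.8% within 5 kb (16.0 to 19.6). Among H3K4me3 regions free of H3K27me3, 10.6% of those that held an H3K4me3 core region (9.74 to 11.4) and 8.33% of those without EZH2 (7.38 to 9.36) were within 5 kb, with medians of 39.2 and 43.9 kb.

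**Figure D4:**
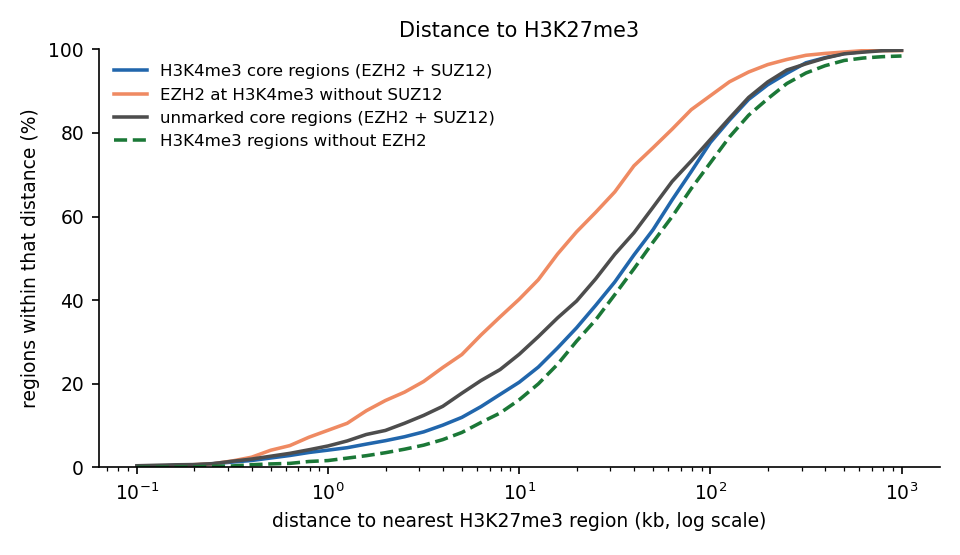
Cumulative share of regions (y axis, %) by distance to the nearest H3K27me3 region (x axis, kb, log scale). H3K4me3 core regions (median 38.7 kb) lie near the H3K4me3 regions without EZH2 (43.9 kb), and EZH2 regions at H3K4me3 without SUZ12 (15.3 kb) lie closest.

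A minority bordered H3K27me3. The H3K4me3 region of 118 H3K4me3 core regions itself touched H3K27me3 elsewhere, and 12 core regions had H3K27me3 within 1 kb on both sides. Of those 12, the region at ABTB2 (chr5:18204539-18205602, EZH2 fold 10.2) lay 49 bp from H3K27me3 on one side and 194 bp on the other. The region at BCL6, a transcriptional repressor (chr9:14478624-14479592, EZH2 fold 6.86), had gaps of 241 and 132 bp, and the region at the co-chaperone gene BAG3 had gaps of 142 and 826 bp. At the edge of the rule, the region at SLC25A4, a mitochondrial ADP/ATP carrier, adjoined H3K27me3 with no base between or shared, and that at NFYC, a subunit of the CCAAT-binding factor, was 9 bp away. Just outside the rule, EZH2 regions at PSD and FBXL15, at SEMA3F and at P4HTM and ARIH2 shared 7, 19 and 30 bp with H3K27me3. Such regions differ from their neighbours across the rule by a few bases of peak border.

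Distance went with the accessory subunits in opposite directions. JARID2 was at 38.4% of H3K4me3 core regions within 5 kb of H3K27me3 (34.8 to 42.1), at 33.6% of those at 5 to 50 kb (31.8 to 35.4) and at 29.4% of those beyond (27.6 to 31.2). AEBP2 was at 27.2% (23.9 to 30.7), 31.0% (29.3 to 32.8) and 36.9% (35.0 to 38.8). Median EZH2 fold fell in step with JARID2, at 3.66, 3.19 and 2.89, and median width was 582, 542 and 514 bp. The JARID2 order was the same at or below the median width of 535 bp (23.6%, 22.6% and 19.7%) and above it (49.6%, 44.1% and 40.4%). At or below that width the intervals within 5 kb and beyond 50 kb overlapped (18.9 to 28.8 and 17.6 to 21.9). Above it they did not (44.6 to 54.7 and 37.6 to 43.2). The part of EZH2 fold was not tested. The JARID2 order was the same in each of 3 chromosome groups, from 37.3% within 5 kb to 28.8% beyond 50 kb on chromosomes 1 to 5 and Z, from 37.9% to 32.2% on chromosomes 6 to 12, and from 39.8% to 27.8% on chromosomes 13 to 39 and W. The intervals of these JARID2 shares overlapped on chromosomes 6 to 12 (30.2 to 46.1 and 28.3 to 36.2) and not in the other groups. The AEBP2 order was not the same in each group. AEBP2 ran 30.3%, 39.3% and 40.6% on chromosomes 1 to 5 and Z, 34.0%, 28.2% and 36.1% on chromosomes 6 to 12, and 19.9%, 22.7% and 22.6% on chromosomes 13 to 39 and W. The last group, which holds the gene-rich small chromosomes, had the lowest AEBP2 share, 22.2%, against 39.1% on chromosomes 1 to 5 and Z, and the shortest median gap, 20.5 kb against 55.0 kb. With lists of equal size the AEBP2 share within 5 kb differed from that beyond 50 kb by −0.05 percentage points, against −9.68 with the full lists, and the JARID2 share by 11.4, against 9.02.

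Seen from the mark, 5304 of 9157 H3K4me3 regions without H3K27me3 (57.9%) held an H3K4me3 core region. EZH2 without SUZ12 was at 6.41%, SUZ12 without EZH2 at 19.7% and neither at 14.1%. The share with an H3K4me3 core region was 23.1% in the narrowest of 10 equal groups of these H3K4me3 regions, reached 70.7% just above the median width and was between 68.2% and 72.8% in wider groups. By H3K4me3 fold it ran from 26.2% in the lowest of 10 groups to 70.6% just above the median and 71.4% in the highest. Above the median of either scale the share varied by a few percentage points with no further climb.

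Of 17839 protein-coding genes, 5982 (33.5%) had an H3K4me3 core region within 1 kb of an end. Among the 8077 genes with H3K4me3 and no H3K27me3 at their ends, here genes with H3K4me3 alone, the share was 67.5%, and among 2132 genes with both marks it was 23.8%. It was 39.5% of all genes with a symbol and 9.27% of all genes known only by a LOC identifier. Within genes with H3K4me3 alone the contrast was smaller: 68.4% of those with a symbol had such a region. Of those with a LOC identifier, 290 had one and 240 did not. Genes with H3K4me3 alone had such a region in 73.6% of cases on chromosomes 1 to 5 and Z, 73.2% on chromosomes 6 to 12 and 55.3% on chromosomes 13 to 39 and W. The 5452 of them with a core region had a median length of 16.5 kb and a median H3K4me3 fold of 15.9, against 10.7 kb and 13.5 for the 2625 without. SUZ12 was the more widespread subunit at these genes: it lay at 89.7%, EZH2 at 75.7%, and SUZ12 without EZH2 at 18.2%. The SUZ12 list is also the longer, with 54487 regions against 25935 for EZH2. The part of list length was not tested, here or in counts of SUZ12 without EZH2 below. No test was made on the gene lists below, which are described by their counts beside these shares.

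**Figure D5:**
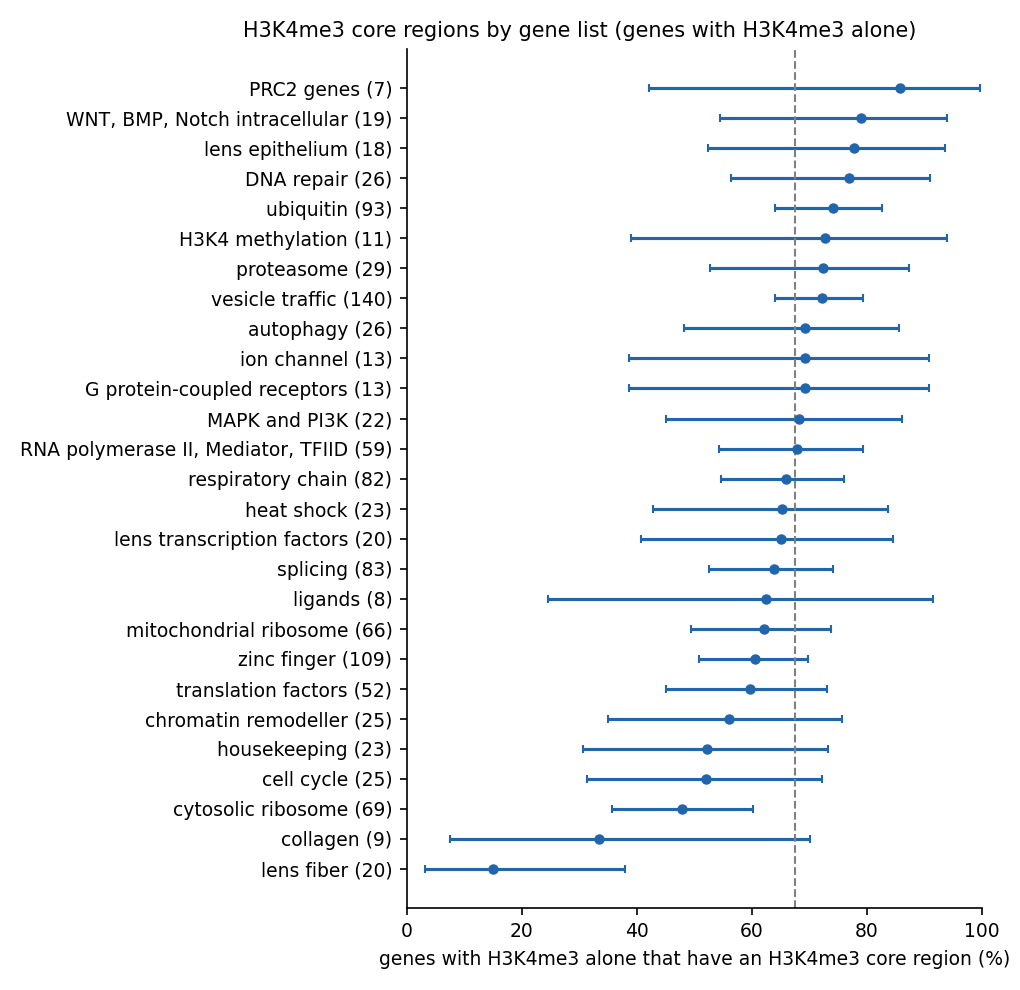
Share of genes with H3K4me3 alone that had an H3K4me3 core region at an end (x axis, %), for gene lists with at least 7 such genes (number in brackets). Bars are 95% exact binomial intervals and the dashed line is the 67.5% of all coding genes with H3K4me3 alone; the lens fiber list, at 15.0%, and the cytosolic ribosome list, at 47.8%, have intervals wholly below it.

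Genes for general cell functions had H3K4me3 core regions about as often as all genes with H3K4me3 alone, or less often. Among genes with H3K4me3 alone, an H3K4me3 core region was at 20 of 26 DNA repair genes, 69 of 93 ubiquitin pathway genes, 101 of 140 vesicle traffic genes, 21 of 29 proteasome genes, 54 of 82 respiratory chain genes, 40 of 59 genes of RNA polymerase II, Mediator and TFIID, 53 of 83 splicing and RNA helicase genes and 41 of 66 mitochondrial ribosome genes. These shares lie between 62.1% and 76.9%, around the 67.5% of all such genes. Lower shares were found for translation factors (31 of 52, 59.6%), housekeeping genes (12 of 23, 52.2%) and cell cycle genes (13 of 25, 52%), with intervals that reach 67.5%. Examples with high EZH2 fold were RAB28 and RAB4A, small GTPases of membrane traffic (13.2 and 12.7), MRPL10 of the mitochondrial ribosome (11.5), NDUFA7 of respiratory complex I (10.0), ATG5, needed for autophagosome growth (9.56), and XRCC5, which encodes the Ku80 subunit of DNA end joining (7.17). The 69 cytosolic ribosome genes with H3K4me3 alone were lower, with 33 (47.8%; 35.6 to 60.2), although their H3K4me3 was strong, with a median fold of 41.7. SUZ12 without EZH2 lay at 28 of the 69. RPL37 carried the strongest H3K4me3 of any named H3K4me3 core region, with a fold of 222 beside an EZH2 fold of 6.52.

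Genes of chromatin regulation had these regions too. Of 7 PRC2 genes with H3K4me3 alone, 6 had an H3K4me3 core region: EED, a core subunit (EZH2 fold 4.93), EZH1, the second catalytic subunit (4.83), SUZ12 (3.71), MTF2, an accessory subunit (2.48), RBBP4, a histone chaperone subunit (1.75), and EZH2 itself (1.51). The folds at RBBP4 and EZH2 fell in the lowest of the 10 equal groups of all EZH2 regions, which ran from 1.16 to 2.14. JARID2 had SUZ12 and H3K4me3 and no EZH2 region. AEBP2 and PHF19 carried both marks and had both-mark core regions. Of 11 genes of H3K4 methylation and demethylation with H3K4me3 alone, 8 had a core region, led by the demethylase gene KDM5B (6.55) and the methyltransferase gene KMT2D (4.98). Of 6 PRC1 genes with H3K4me3 alone 4 had one, and of 25 chromatin remodeller and modifier genes 14 (56%). Most PRC1 genes, 14 of 21, carried both marks, and 8 of the 21 had an H3K4me3 core region. The remodeller gene CHD4 had the highest EZH2 fold of its list, 10.5, at a region with AEBP2 at a fold of 8.26 and no JARID2.

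Developmental regulators of other lineages were almost absent, as follows from the rule where H3K27me3 covers them. No HOX gene of 35 had an H3K4me3 core region, and all 35 had H3K27me3 and no H3K4me3. Of 47 neural transcription factor genes 1 did, LHX2 (EZH2 fold 6.39, 10.8 kb from H3K27me3), and of 48 mesoderm and endoderm regulators 2 did, SHOX2 and WT1. At SHOX2 the region lay 0.24 kb from H3K27me3. Of 161 ion channel genes 11 did, and of 76 ligand genes 7, among them WNT5A, TGFB2, JAG1 and EFNB2. The share over all coding genes was 33.5%. Few genes of these 2 lists had H3K4me3 alone. Among those, 9 of 13 ion channel genes (69.2%) and 5 of 8 ligand genes (62.5%) had a core region, near the 67.5% of all such genes.

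Lens regulators had these regions about as often as other genes with H3K4me3 alone, and lens fiber genes seldom did. Of 20 lens transcription factor genes with H3K4me3 alone, 13 had an H3K4me3 core region (65.0%; 40.8 to 84.6). PAX6, the master regulator of eye development, had 1 region of EZH2 fold 3.32 with JARID2, 3.15 kb from H3K27me3. FOXE3, needed for the lens epithelium, had 2 regions, the stronger of fold 6.56. SIX3 had 1 of fold 2.42 beside an H3K4me3 fold of 134, and MAB21L1 1 of fold 2.28 beside 105. SOX1 had 3, DACH1 2 and SOX11 2, and PITX3 had 1 of fold 1.47. SOX3, expressed in the lens placode, had 4 regions within 1 H3K4me3 region of 6260 bp, with EZH2 folds of 3.92, 4.42, 2.504 and 2.59. MAF, PROX1, HES1, ID3 and EYA2, with H3K4me3 folds between 26.2 and 87.0, had SUZ12 and no EZH2 region. At MAFA the EZH2 region, of fold 2.32, did not meet SUZ12.

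Of 18 lens epithelium genes with H3K4me3 alone, 14 had an H3K4me3 core region (77.8%; 52.4 to 93.6). They included the growth factor receptor genes BMPR1A (EZH2 fold 5.004), BMPR2 (4.31), FGFR1 (4.13) and IGF1R (1.33), the Notch pathway genes NOTCH2 (4.78), JAG1 (3.58) and NOTCH1 (2.98), the integrin gene ITGB1 (4.01), the connexin gene GJA1 (1.99995) and N-cadherin, CDH2 (1.77). Counted at the strongest region of each gene, JARID2 was at 3 of the 16 genes of this list with a region and AEBP2 at 3. Over all coding genes with a region, these shares were 33.7% and 34.5%. FGFR3 and FZD1 had H3K4me3 folds of 128 and 108 and no EZH2 region.

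Of 20 lens fiber genes with H3K4me3 alone, 3 had an H3K4me3 core region (15.0%; 3.21 to 37.9): BIRC7 (EZH2 fold 5.67), the spectrin gene SPTBN1 (2.01) and TDRD7, a component of RNA granules (1.45). CRYBA2, a beta crystallin gene with both marks, also had a core region, of fold 1.62. EZH2 lay at 5 of the 20 and SUZ12 at 15, and SUZ12 without EZH2 at 10: the crystallin genes CRYAA and CRYBA1, the delta crystallin genes ASL1 and ASL, GRIFIN, the connexin gene GJA3, the beaded filament genes BFSP1 and BFSP2, VIM and CAPRIN2. CRYBB1 and MIP, the lens aquaporin gene, had EZH2 regions of fold 1.2998 and 2.10 that did not meet SUZ12. H3K4me3 fold differed widely among these genes, from 2.04 at CRYBB1 to 65.2 at EPHA2, and of the 20 genes 5, 3, 6, 3 and 3 fell in 5 equal groups of all such genes ranked from low to high H3K4me3 fold. Over all genes with H3K4me3 alone, the share with a core region was 56.4% in the lowest of these groups and between 67.7% and 72.4% in the others. Of the 20, 11 lie on chromosomes 13 to 39, where the share over all such genes was 55.3%. With each list cut to its 11079 strongest regions, 1 of the 20 fiber genes had a core region (5%), against 11.8% of all genes with H3K4me3 alone.

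The strongest H3K4me3 core regions were not at lens genes. The highest EZH2 fold, 24.2, was at SLC25A21, a mitochondrial carrier gene (chr5:36478827-36479845), where JARID2 and AEBP2 had folds of 6.17 and 7.07 and H3K27me3 lay 556 bp away. Others among the 10 regions of highest EZH2 fold were at PALMD (20.2), SDAD1 (20.1), GMEB2 (19.4), FUBP3 (18.5), CPNE9 and BRPF1 (18.1), DHRS12 (17.8), MRPS22 (17.8) and PLEKHF2 (17.7). All 10 overlapped JARID2, and 6 overlapped AEBP2. Over all H3K4me3 core regions with an EZH2 fold from 10, the shares were 69.7% and 61.5%. Of these 10, 7 lay within 10 kb of H3K27me3, while DHRS12 lay 183 kb, PALMD 79.8 kb and PLEKHF2 61.1 kb away. Over all H3K4me3 core regions, 20.4% lay within 10 kb.

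Other subunits picked other genes. The highest SUZ12 fold, 40.7, was at MED18, a Mediator subunit gene (chrZ:24527492-24527955), followed by 31.0 at SDAD1 and, among named genes, 25.9 at CDC16 and RASA3. JARID2 was strongest at OSTM1 (17.97), XKR6 (17.8), BLMH and TMIGD1 (15.7), ACSF3 (14.2) and FAM208B and ASB13 (14.2). AEBP2 was strongest at NKPD1 (chr38:588724-589034, fold 41.4) without JARID2, and then at SEC22C (18.2), SEC24D, a coat protein gene of vesicles leaving the endoplasmic reticulum (16.7), the receptor phosphatase gene PTPRD (15.0) and PALMD (14.9). The 5 regions farthest from H3K27me3 were all on chromosome W, at 1465 to 6124 kb, and the only named gene among them was UBE2R2L. Besides SOX3, several regions within 1 H3K4me3 region were found at DUSP6 (3), which encodes a phosphatase that limits ERK signalling, ZMYM2 (3) and YAP1 (2 of 3).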

How the data were processed

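Per the submitters' processing notes, the tools were Trim Galore 0.6.4, Bowtie2 2.4.1 and MACS2 2.2.7.1, with the chicken build GRCg7b. No source used here says if the libraries of an antibody were merged for peak calling or if IgG was its control. The deposited peak lists give each peak a fold ratio over the caller's background and a −log10 q-value. Per the file values, all peaks passed a q limit of 0.05. The deposited score and p-value of each peak were not used, and the deposited summit offset gave the summit. Depth per library is unknown. Peaks on assembled chromosomes were intersected at 1 bp with Python 3.11.15, numpy 2.4.6 and pandas 2.3.3, and shares carry exact binomial (Clopper-Pearson) 95% intervals from scipy 1.17.1. The interval code was checked on simulated data.

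RefSeq's GRCg7b table supplied the genes, 17839 of them protein-coding and 3539 of those with a LOC identifier only. It gives no strand, so both gene ends replaced the planned gene start, with a window of 1 kb. No sequence was used, and the planned promoter motifs were not analysed here. The regions, gene lists and alternatives were chosen with earlier results of these data known, so nothing here is independent support for those results, and no test across conditions was possible. Differences of shares carry normal-approximation 95% intervals. Named genes were those at the 10 regions of highest EZH2 fold and the 5 highest of each other list, genes of highest EZH2 fold per gene list, all lens and PRC2 genes by state, genes at H3K4me3 regions with most members, and genes at regions nearest to, between or farthest from H3K27me3. Genes without a symbol were counted and not named. A gene that these rules pick is not reported here, and counts include it.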

Additional observations from a re-analysis of the deposited data

How the results depend on the processing

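The 7 main results were recomputed under other settings, which gave 40 values. Of these, 28 stayed within 1.5 times a main count or inside the 95% interval of a main share, and 12 moved. With lists cut to their 11079 strongest regions, 1000 H3K4me3 core regions and 1098 genes were left, with JARID2 at 13.8%, AEBP2 at 5.60%, 8.70% within 5 kb of H3K27me3 and 25.4% of EZH2 summits in the 4 outer parts of the H3K4me3 region. This alternative removes most of the longer lists by construction. With a −log10 q of at least 5 in every list, JARID2 was at 23.3%, AEBP2 at 25.1% and 9.85% lay within 5 kb of H3K27me3. When regions with H3K27me3 within 1 kb were left out, 8.15% lay within 5 kb. A coding gene end was near 76.6% with a window of 500 bp and 87.3% with one of 2.5 kb. A 50% overlap and all sequences moved none of the 7 results. H3K4me3 regions of at least 1 kb, tried for the place of EZH2 summits only, gave 31.5% in the outer parts.

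Another 10 results were recomputed under the same settings, a choice made after seeing the data. This gave 54 values, of which 44 stayed inside the interval of the full-list value and 10 moved. No difference of shares among them changed sign, and plain shares cannot do so. The JARID2 share of H3K4me3 minus H3K27me3 core regions was −28.8 percentage points with the full lists and −43.1 with lists of equal size. With lists of equal size 2 AEBP2 differences came near 0: that within 5 kb against beyond 50 kb from H3K27me3 (−0.05 percentage points, −9.68 with the full lists) and that against H3K27me3 core regions at EZH2 folds of 2.5 to 10 (0.05, 8.60 with the full lists). The JARID2 difference by distance was between 8.98 and 11.4 percentage points in every alternative. The lens fiber share was between 5% and 15.0%, against 11.8% to 70.1% for all genes with H3K4me3 alone, and at equal list size it was 1 of 20 genes against 11.8%. EZH2 summits lay inside the gene in 59.6% to 70.6%, and H3K4me3 summits in 91.8% to 92.8%.

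No paired analysis was possible because each antibody has 1 deposited list and no value per pool, and no replicate was left out. Unknown depth and the different antibody dilutions limit every comparison between lists.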
